A study of Rattus norvegicus with 16 samples.

Results

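The isoforms described here belong to 6 genes, Fry, Cep295, Rfx3, Usp45, Rnf150 and Pnkd, and were measured in dorsal hippocampal CA1 of 14-day-old rats. They are all rows of the deposited isoform table that carry one of these gene names, 19 of 21698 isoforms. Fry had 4 isoforms, Cep295 had 3, Rfx3 and Usp45 had 2 each, Rnf150 had 1 and Pnkd had 7. RefSeq (GRCr8) places these genes on chromosomes 12, 8, 1, 5, 19 and 9. Of the 19 isoforms, 18 were annotated as protein coding. The genes were chosen because one of their isoforms stood near the top of the authors' comparison of kainate with control and differed in the same direction in nearly all same-numbered pairs of libraries. All differences between kainate and control below are therefore descriptions, with no test.

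The kainate group comprised 8 male Sprague-Dawley rats given 2 mg/kg kainate under the skin on postnatal day 7. The control group comprised 8 such rats given saline on the same day. Kainate is an agonist of kainate-type glutamate receptors, and it provokes seizures in rat pups. All rats were killed on postnatal day 14, 7 days after the injection, and CA1 was cut out of 400 µm slices that had rested for 60 min in oxygenated artificial cerebrospinal fluid, in both groups. Single libraries are named by group and by the replicate number, 1 to 8, in the sample titles. No label ties rats of one number to each other, and no litter or batch is given. The titles also carry another number, unexplained, that rises with the replicate number in each group. Same-numbered libraries thus share a rank in that order. Same-numbered libraries deviated together in part because replicates 1 to 4 differ from replicates 5 to 8, so the 8 pairs are not shown to be matched rats.

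The genes serve different parts of the cell. Fry is a very large microtubule-binding protein that acts with kinases of the NDR family, and its fly counterpart, furry, is needed for the orderly branching of dendrites. Cep295 is a centriole protein needed to turn a newly made centriole into a working centrosome, the structure that also anchors the cilium. Rfx3 is a transcription factor that switches on genes of cilia by binding a sequence called the X-box. Usp45 removes ubiquitin from proteins, among them the DNA repair nuclease subunit ERCC1 in human cells, and Rnf150 belongs to a family of membrane proteins with a RING domain, the hallmark of many ubiquitin ligases. Pnkd encodes a protein found in nerve terminals, and mutations in the human gene cause attacks of involuntary movement called paroxysmal nonkinesigenic dyskinesia. Which of its isoforms encode that protein was not analysed.

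In each gene the isoform with the most same-numbered pairs in one direction was taken as the lead isoform, and ties went to the smaller p-value in the authors' deposited table. The other 13 are called sister isoforms. Values are the authors' log2 values, on which differences of weakly expressed isoforms are compressed. All 6 lead isoforms had higher means in kainate than in control libraries, by 0.12 to 0.46 on this scale. The differences of the 13 sister isoforms lay between -0.36 and 0.17 (median -0.00081), where all 21698 isoforms had a median of -0.00015. Of the lead isoforms 5 of 6 were higher in all 8 pairs, against 0.479% of all isoforms, and 0 of 13 sister isoforms were. None of the 19 was lower in all 8, against 0.438% of all isoforms. All 6 lead isoforms and 1 sister isoform were higher in at least 7 pairs, against 4.75% of all isoforms. The rule chose the lead isoforms for this, so nothing is read from these counts. The kainate and control values overlapped in all 19 isoforms, as they did in every isoform of the table (0% without overlap).

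The authors' deposited table calls the lead isoforms of Cep295, Usp45 and Fry at a threshold of 0.05, among 7 called of 16650 isoforms with an adjusted p (0.0420%). Just inside that threshold the authors' deposited table has Fry at 0.0439. Just outside it the authors' deposited table has Pnkd at 0.0635, Rfx3 at 0.0737 and Rnf150 at 0.0874. The authors' log2 fold changes of the lead isoforms were 0.31 for Cep295, 0.29 for Fry and 0.28 for both Rfx3 and Pnkd. Those of Usp45 and Rnf150 were 0.19 and 0.18. In order and size these differ from the differences of mean log2 values given below. With limma on the deposited log2 values, 0 of 21698 isoforms had an adjusted p under 0.05 (0%), while 325 passed 0.05 before adjustment (142 with higher and 183 with lower values in kainate).

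**Figure D1:**
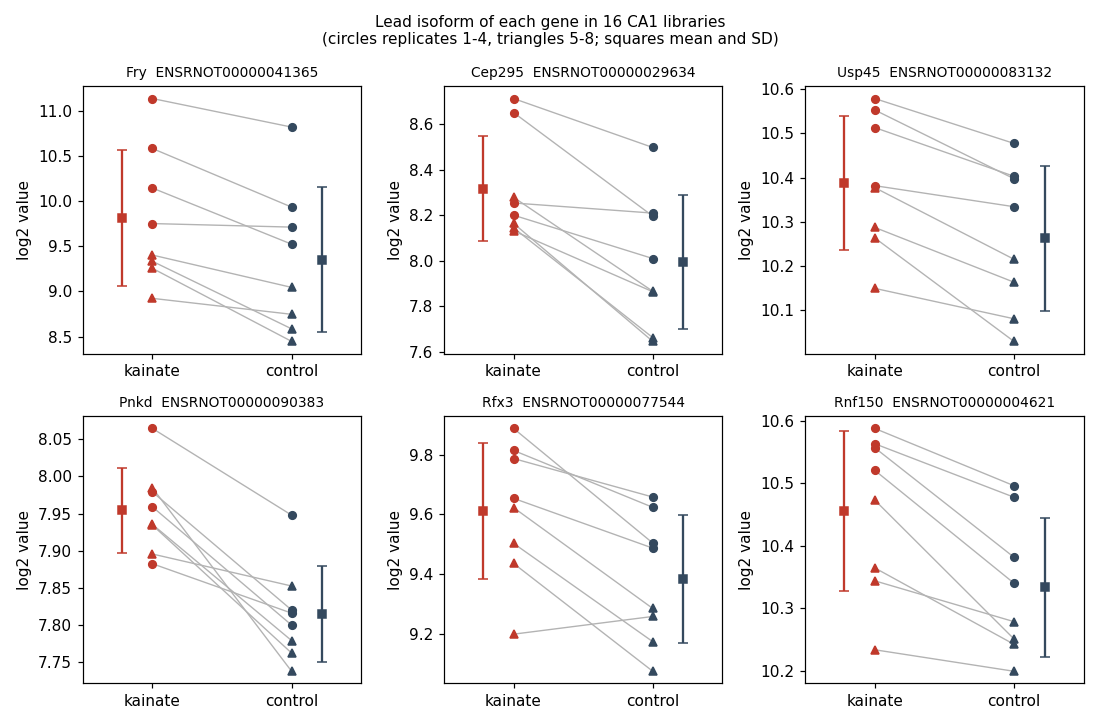
Log2 value (vertical axes, one scale per gene) of the lead isoform of each gene in the kainate libraries (left) and control libraries (right); grey lines join same-numbered libraries, and squares with bars are means and SDs over 8 libraries. The kainate point is the higher in every pair except pair 7 of Rfx3, and replicates 1 to 4 (circles) have higher means than replicates 5 to 8 (triangles).

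The Fry isoform ENSRNOT00000041365 had the widest gap on the deposited log2 values, though not by the authors' fold changes. Its log2 value had a low of 8.92, a median of 9.58 and a high of 11.14 in kainate libraries, against a low of 8.45, a median of 9.28 and a high of 10.82 in control libraries. The groups overlapped over most of their range, and the highest library of each group was replicate 2. The means were 9.82 ± 0.75 in kainate and 9.35 ± 0.80 in control libraries (SD, n = 8 each), a difference of 0.46 that is smaller than the SD of either group. Within same-numbered pairs the spread was smaller: the 8 differences ran from 0.039 in pair 3 to 0.81 in pair 8, with an SD of 0.28. Leaving out 1 library moved the difference to 0.28 (without kainate replicate 2) or 0.67 (without control replicate 2).

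The other Fry isoforms did not share this gap. ENSRNOT00000077167, which held 78.7% of the summed values of the gene on average, was at 13.50 ± 0.17 in kainate and 13.45 ± 0.20 in control libraries (SD, n = 8 each). Its pairs were mixed, 6 higher and 2 lower, from -0.32 in pair 1 to 0.31 in pair 8. ENSRNOT00000075920 was at 10.91 ± 0.28 in kainate and 10.81 ± 0.30 in control libraries (SD, n = 8 each), with 4 pairs each way. Summed over its 4 isoforms, Fry had a low of 13.61, a median of 13.94 and a high of 14.08 in kainate, against a low of 13.61, a median of 13.73 and a high of 14.04 in control libraries. The difference of the total was 0.072, with an SD of 0.16 over pairs, and 5 of 8 pairs were higher.

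The fourth Fry isoform, ENSRNOT00000076483, was the most variable of the 19. It lay between 6.28 and 10.37 in kainate libraries and between 6.29 and 10.37 in control libraries. Its pair differences ran from -2.98 in pair 3 to 1.80 in pair 1, with a mean of -0.36 and an SD of 1.44. The authors' deposited table gives it a ratio of 1.00, with a log2 fold change of -0.00019, although the deposited library values average 0.36 lower in kainate. High values were found in replicates 1 to 4: kainate replicates 1 and 2 had 10.37 and 9.72, and control replicates 1, 2 and 3 had 8.57, 10.37 and 9.38. Without pair 3 the mean difference was 0.018. In replicates 5 to 8 the highest value was 7.44.

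**Figure D2:**
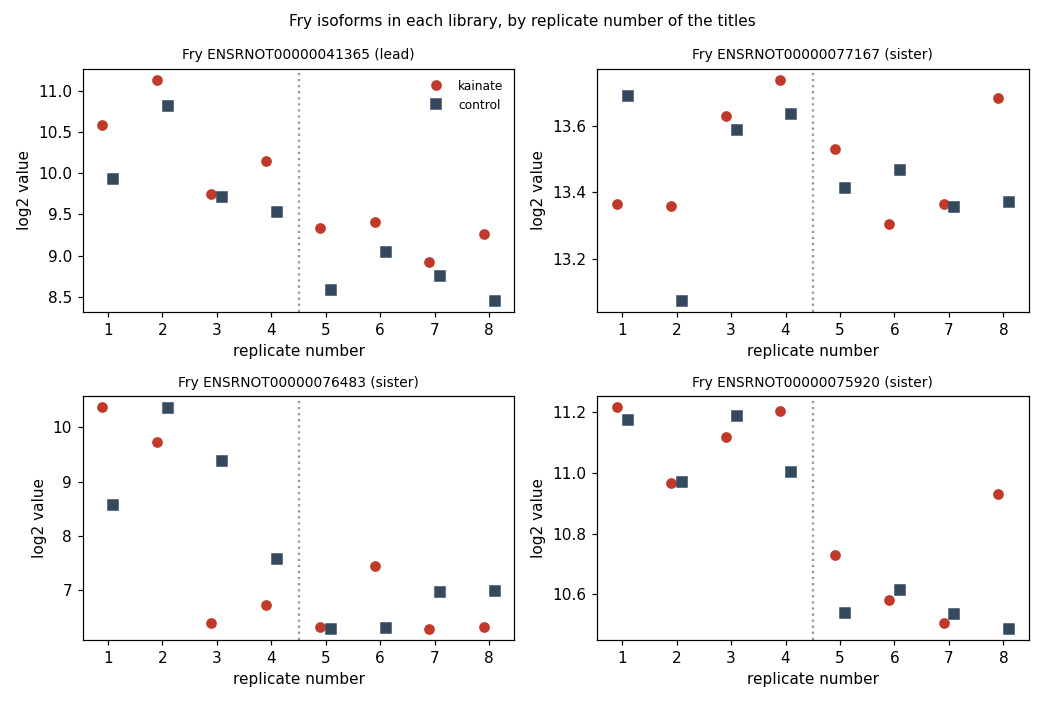
Log2 value (vertical axes, one scale per isoform) of the 4 Fry isoforms in each library by replicate number (horizontal axes), kainate as circles and control as squares; the dotted line stands between replicates 4 and 5. The lead isoform is higher in kainate at every number, ENSRNOT00000077167 is not, and ENSRNOT00000076483 ranges from 6.28 to 10.37.

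For Cep295 the differences of the lead isoform and its main sister had opposite signs. ENSRNOT00000029634 had a low of 8.13, a median of 8.23 and a high of 8.71 in kainate libraries, against a low of 7.65, a median of 7.94 and a high of 8.50 in control libraries. The lowest kainate library was above 5 of the 8 control libraries, and control replicates 1, 2 and 4 lay within the kainate range. Means were 8.32 ± 0.23 in kainate and 7.99 ± 0.29 in control libraries (SD, n = 8 each), and the difference of 0.32 exceeded both SDs. Pair differences ran from 0.044 in pair 4 to 0.52 in pair 5.

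The more abundant Cep295 isoform, ENSRNOT00000083011, had a low of 9.57, a median of 9.70 and a high of 10.18 in kainate, against a low of 9.77, a median of 9.83 and a high of 10.16 in control libraries. It was lower in kainate in 6 of 8 pairs, with means of 9.76 ± 0.22 and 9.88 ± 0.14 for kainate and control (SD, n = 8 each). The third isoform, ENSRNOT00000078372, was at 7.63 ± 0.16 in kainate and 7.53 ± 0.095 in control libraries (SD, n = 8 each), higher in 5 of 8 pairs. Because these differences have opposite signs, total Cep295 hardly differed, with 10.45 ± 0.15 in kainate and 10.44 ± 0.12 in control libraries (SD, n = 8 each).

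Both Rfx3 isoforms had higher means in kainate. The lead isoform ENSRNOT00000077544 had a low of 9.20, a median of 9.64 and a high of 9.89 in kainate, against a low of 9.07, a median of 9.39 and a high of 9.66 in control libraries. Its sister ENSRNOT00000023762 had a low of 8.21, a median of 8.81 and a high of 9.12 in kainate, against a low of 8.23, a median of 8.58 and a high of 9.05 in control libraries. Both were higher in kainate in 7 of 8 pairs, and both were lower in pair 7, with differences of -0.059 and -0.15. The lead isoform was at 9.61 ± 0.23 in kainate and 9.38 ± 0.22 in control libraries (SD, n = 8 each), so its difference of 0.23 was about as large as the spread within a group. The total of the gene was at 10.25 ± 0.25 in kainate and 10.04 ± 0.24 in control libraries (SD, n = 8 each), a difference of 0.21, the largest of the 6 gene totals.

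Since both Rfx3 isoforms leaned the same way, the 250 bases before the start listed for the gene in the RefSeq promoter table (GRCr8) are shown, 5′ to 3′. That start lies 0.567 kb inside the gene span, so the window is within the gene and other starts may exist. Capitals mark the letters GTTGCC or GTTGCT on either strand (GGCAAC and AGCAAC on the strand shown), which are half-sites of the X-box that RFX factors bind. These motifs were picked after the sequences had been read.
Rfx3, chr1:235122423-235122672, minus strand: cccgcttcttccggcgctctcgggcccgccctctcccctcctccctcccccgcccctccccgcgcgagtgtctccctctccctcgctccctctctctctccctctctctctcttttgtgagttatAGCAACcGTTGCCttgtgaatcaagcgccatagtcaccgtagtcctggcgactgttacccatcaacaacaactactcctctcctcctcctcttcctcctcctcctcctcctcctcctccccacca
This window held 1 match to each motif, AGCAAC and then GTTGCC on the strand shown, with 1 base between them. Their order and spacing were not compared with those of an X-box, so the pair is not read as one. Among 33469 RefSeq promoter windows of the same length, 9.89% held GTTGCC, 12.1% held GTTGCT and 20.7% held either. The share of windows with both side by side was not counted. The windows of Fry, Cep295, Usp45 and Rnf150 held neither. A match is only a run of letters here, and no binding was measured.

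Of the 2 Usp45 isoforms, the lead, ENSRNOT00000083132, had a higher mean in kainate, by less than the SD of either group. The mean of the sister hardly differed. ENSRNOT00000083132 had a low of 10.15, a median of 10.38 and a high of 10.58 in kainate, against a low of 10.03, a median of 10.27 and a high of 10.48 in control libraries. The groups overlapped widely, with means of 10.39 ± 0.15 in kainate and 10.26 ± 0.16 in control libraries (SD, n = 8 each). The pair differences were close together, from 0.048 in pair 1 to 0.23 in pair 8, with an SD of 0.059. The sister ENSRNOT00000066043 had a low of 9.57, a median of 9.84 and a high of 10.07 in kainate, against a low of 9.51, a median of 9.86 and a high of 9.98 in control libraries. It was at 9.83 ± 0.17 in kainate and 9.84 ± 0.14 in control libraries (SD, n = 8 each), with 5 pairs higher and 3 lower. The total differed by 0.070 and was higher in 7 of 8 pairs, pair 1 being the exception at -0.11.

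Rnf150 had a single isoform in the table, ENSRNOT00000004621, so its isoform and gene values are the same. It had a low of 10.23, a median of 10.50 and a high of 10.59 in kainate, against a low of 10.20, a median of 10.31 and a high of 10.50 in control libraries. Every kainate library was above the control of its own number, by 0.034 in pair 7 to 0.22 in pair 8. The means were 10.46 ± 0.13 in kainate and 10.33 ± 0.11 in control libraries (SD, n = 8 each), and the difference of 0.12 was close to the spread within a group. No sister isoform was there to set it against. Over gene totals, 0.434% of 16604 genes were higher in all 8 pairs; Rnf150 was chosen for that property. The 250 bases before its RefSeq start are shown because its single isoform stands for the whole gene.
Rnf150, chr19:42133218-42133467, minus strand: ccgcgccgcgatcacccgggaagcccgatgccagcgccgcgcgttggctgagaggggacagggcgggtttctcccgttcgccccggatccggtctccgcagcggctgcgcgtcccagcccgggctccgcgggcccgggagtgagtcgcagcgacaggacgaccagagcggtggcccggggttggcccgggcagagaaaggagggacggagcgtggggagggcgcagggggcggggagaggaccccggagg
This window was 76.4% G or C and held 34 CG dinucleotides, against 62.0% and 14 for Rfx3 and a median of 51.2% G or C over all windows.

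Pnkd was the gene with most isoforms and the one whose lead isoform stood out most from the spread between rats. ENSRNOT00000090383 had a low of 7.88, a median of 7.95 and a high of 8.06 in kainate, against a low of 7.74, a median of 7.81 and a high of 7.95 in control libraries. All 8 kainate libraries were above 7 of the 8 control libraries, the exception being control replicate 4. The means were 7.95 ± 0.057 in kainate and 7.81 ± 0.065 in control libraries (SD, n = 8 each), and the difference of 0.14 was larger than either SD. Pair differences ran from 0.043 in pair 6 to 0.25 in pair 8.

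The other 6 Pnkd isoforms showed no common direction. The main isoform, ENSRNOT00000046229, was at 11.78 ± 0.094 in kainate and 11.81 ± 0.082 in control libraries (SD, n = 8 each), with 4 pairs each way. ENSRNOT00000020049 was at 10.96 ± 0.25 in kainate and 11.01 ± 0.19 in control libraries (SD, n = 8 each), and pair 1 alone differed by -0.74. ENSRNOT00000074131, at 9.83 ± 0.16 in kainate and 9.88 ± 0.18 in control libraries (SD, n = 8 each), was lower in 5 of 8 pairs. ENSRNOT00000089580 and ENSRNOT00000081106 differed by 0.073 and 0.069, with pair SDs of 0.27 and 0.30. The remaining one, ENSRNOT00000081406, a processed transcript that codes for no protein, differed by -0.00081 at a value near 4.93, where the deposited scale hardly varies. Total Pnkd was at 12.77 ± 0.073 in kainate and 12.80 ± 0.087 in control libraries (SD, n = 8 each), lower in 6 of 8 pairs, so the lead isoform and the total had opposite signs.

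The RefSeq start used for the promoter table of Pnkd lies 49.2 kb inside the span of the gene, which has an earlier start as well. Which start each of the 7 deposited isoforms uses was not analysed here. The 250 bases before that inner start are shown, with capitals as for Rfx3.
Pnkd, chr9:83366722-83366971, plus strand: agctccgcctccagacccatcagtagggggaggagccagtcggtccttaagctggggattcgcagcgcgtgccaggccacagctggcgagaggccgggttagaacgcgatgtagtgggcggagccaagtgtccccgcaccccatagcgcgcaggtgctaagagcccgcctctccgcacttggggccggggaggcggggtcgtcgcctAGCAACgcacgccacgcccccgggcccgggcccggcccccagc
It held 1 GTTGCT match, on the opposite strand, and no GTTGCC.

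**Figure D3:**
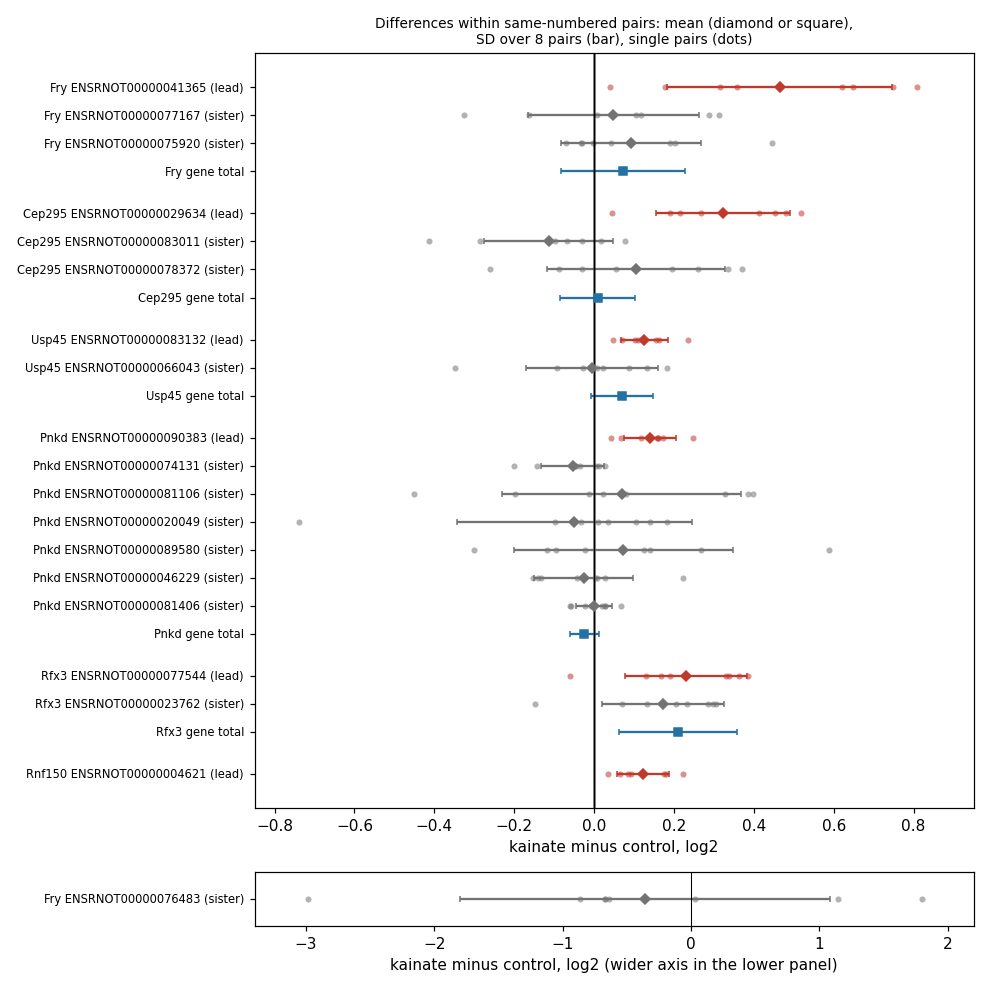
Difference of log2 values, kainate minus control (horizontal axes), for the 19 isoforms and the gene totals; diamonds and squares are means, bars the SD over 8 same-numbered pairs and dots the single pairs, with Fry ENSRNOT00000076483 on a wider axis below. Lead isoforms (red) lie to the right of 0, from 0.12 to 0.46, while the totals (blue) of Cep295 and Pnkd lie at 0.0089 and -0.024.

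The mix within each gene was then expressed as the share of the summed values held by the lead isoform. The lead isoform was chosen for its direction over the pairs, so a higher share in kainate partly follows from that choice. The shares come from the compressed log2 values raised to a power of 2 and are not divided by transcript length, so they count neither reads nor molecules. By the mean normalized counts in the authors' deposited table the Fry lead holds 7.12% of its gene and ENSRNOT00000076483 holds 5.35%, against 5.99% and 2.40% by the log2 values over all libraries. The Fry lead held 6.73% ± 3.64 in kainate and 5.25% ± 3.37 in control libraries (SD, n = 8 each), higher in 8 of 8 pairs. Replicate 2 had the highest share in each group, 14.4% in kainate and 13.2% in control. The difference of 1.48 percentage points became 0.384 without kainate replicate 2 and 2.61 without control replicate 2. The Cep295 lead held 23.2% ± 4.18 in kainate and 18.6% ± 3.28 in control libraries (SD, n = 8 each), higher in 7 of 8 pairs. The Pnkd lead held 3.55% ± 0.273 in kainate and 3.17% ± 0.261 in control libraries (SD, n = 8 each), higher in 8 of 8 pairs.

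In the other genes with several isoforms the lead isoform held most of the sum. The Usp45 lead held 59.5% ± 3.15 in kainate and 57.3% ± 3.90 in control libraries (SD, n = 8 each), and the Rfx3 lead 64.5% ± 2.25 and 63.6% ± 1.80 for kainate and control. With 1 library left out, the Usp45 difference of 2.21 points was lowest at 1.47 (without kainate replicate 2) and highest at 3.31 (without control replicate 2). The Rfx3 difference of 0.912 points was lowest at 0.441 (without kainate replicate 5) and highest at 1.35 (without kainate replicate 2). The share was higher in kainate in 6 of 8 pairs for Usp45 and 7 of 8 for Rfx3.

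The lead isoform was also set against the sum of the other isoforms of its gene, a measure added after the data were seen. That sum differed by 0.049 for Fry, -0.075 for Cep295, 0.17 for Rfx3, -0.0049 for Usp45 and -0.030 for Pnkd on the log2 scale. The log2 ratio of the lead isoform to that sum differed by 0.42 for Fry and 0.17 for Pnkd, with pair SDs of 0.26 and 0.077, and was higher in kainate in 8 of 8 pairs of both. For Cep295 the ratio differed by 0.40, with a pair SD of 0.28 and 7 of 8 pairs higher. For Rfx3 and Usp45 it differed by 0.058 and 0.13, with pair SDs of 0.082 and 0.17. The ratio was higher in kainate in 7 of 8 pairs for Rfx3 and 6 of 8 for Usp45. The lead was chosen for its pairs, which favours a higher ratio in kainate, so nothing is read from these counts. The sum of the other isoforms was higher in kainate in 4 of 8 pairs for Fry, 3 for Cep295, 5 for Usp45, 2 for Pnkd and 7 for Rfx3. By limma's diffSplice over all 3773 genes with several isoforms, 0 passed an adjusted p of 0.05 (0%) and 88 had an unadjusted p under 0.05.

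**Figure D4:**
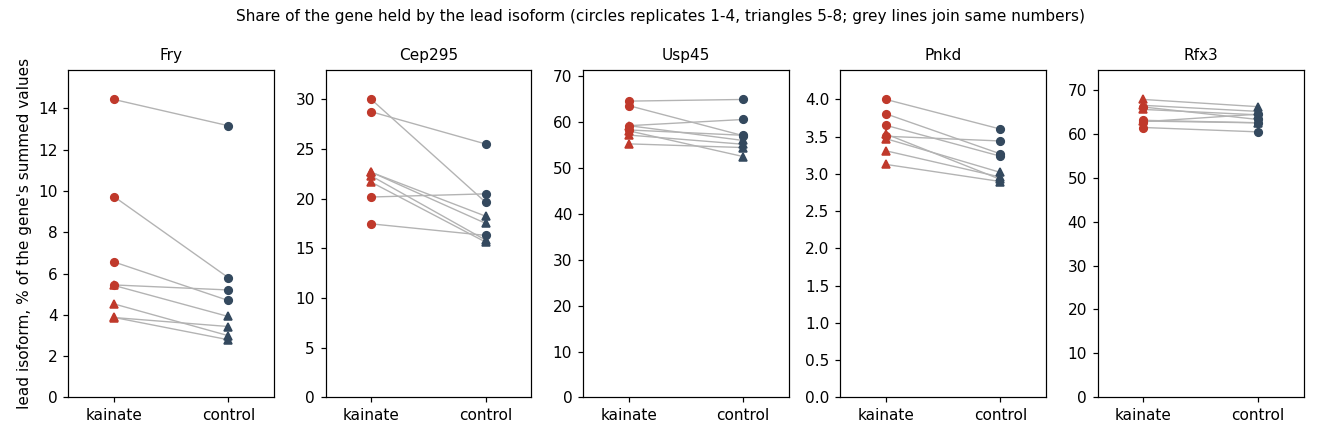
Share of the gene's summed values held by the lead isoform, in percent (vertical axes from 0, one scale per gene), in kainate (left) and control (right) libraries; grey lines join same numbers, circles are replicates 1 to 4 and triangles 5 to 8. The Pnkd and Fry lines all run downward from kainate to control, and the Fry share of both replicate 2 libraries is above 13%.

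The 16 libraries also fell apart by replicate number. A principal component analysis over all isoforms gave a first component with 45.3% of the variance, and its scores were -23.2 to -4.31 in replicates 1 to 4 and 5.88 to 17.4 in replicates 5 to 8, each set holding 4 libraries of each group. All 6 lead isoforms had higher means in replicates 1 to 4. For Fry these sets did not overlap, with 9.52 to 11.14 in replicates 1 to 4 and 8.45 to 9.40 in replicates 5 to 8. Among the 19 isoforms 3 did not overlap between the sets, against 9.83% of all isoforms. The other such isoforms were Fry ENSRNOT00000075920, higher in replicates 1 to 4 by 0.49, and Pnkd ENSRNOT00000074131, with a difference of -0.29. The difference between kainate and control was positive in both sets for every lead isoform. For the 5 leads higher in all 8 pairs this follows from that property alone, so nothing is read from it. The difference was 0.41 and 0.52 for Fry in replicates 1 to 4 and 5 to 8, 0.23 and 0.42 for Cep295, and 0.22 and 0.24 for Rfx3. It was 0.10 and 0.15 for Usp45, 0.13 and 0.11 for Rnf150, and 0.13 and 0.15 for Pnkd.

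Within pairs the score of the first component also differed between kainate and control. In pair 8, where Fry, Usp45, Rnf150 and Pnkd had their widest gaps, the scores were 5.88 for kainate and 17.4 for control. In pair 7, where Rfx3 was lower in kainate and Rnf150 had its narrowest gap, they were 16.6 for kainate and 16.4 for control. In pair 3, the narrowest for Fry, they were -7.80 for kainate and -8.86 for control. For Fry, pairs 1, 4, 5, 6 and 8, where kainate had the lower score, had gaps of 0.65, 0.62, 0.75, 0.36 and 0.81. Pairs 2, 3 and 7, where kainate had the higher score, had Fry gaps of 0.32, 0.039 and 0.18. For the other leads this order did not always hold, and Cep295 had 0.044 in pair 4 and 0.48 in pair 7. Pair 1 had the widest score gap, -21.0 for kainate and -7.30 for control, and was the narrowest pair for Usp45. Pair 6, at 8.28 for kainate and 13.1 for control, was the narrowest for Pnkd. The part of the first component in the differences was not tested.

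Marker genes of neighbouring cell types were described by the same means, without a test. Their summed levels overlapped between the groups in every list. Every isoform of the table overlapped too, so overlap does not show that cell composition was alike. In these bulk samples fewer cells of a type and less RNA per cell cannot be told apart. Of the dentate granule cell markers 5 of 5 measured were higher in kainate, and their summed log2 level ran from 12.48 to 12.99 in kainate and from 12.47 to 12.82 in control libraries. Of the oligodendrocyte markers 0 of 6 were higher, with sums of 17.70 to 18.16 in kainate and 17.82 to 18.25 in control libraries. Of the choroid plexus and ependymal markers 1 of 5 was higher, with sums of 9.90 to 10.34 in kainate and 9.97 to 10.50 in control libraries, and its least abundant marker, Kl, averaged 2.45. CA1 pyramidal markers, 3 of 5 of them higher, summed to 16.30 to 16.54 in kainate and 16.30 to 16.56 in control libraries, and the least abundant of them, Ndst3, averaged 9.43. CA3 markers were higher for 1 of 5 genes, with sums of 12.63 to 12.96 in kainate and 12.81 to 12.92 in control libraries, and markers of cortical layers for 6 of 6, with sums of 11.84 to 12.06 and 11.84 to 12.02. Interneuron, astrocyte, microglial and vessel markers had 3 of 6, 3 of 5, 2 of 5 and 3 of 4 genes higher. The summed level differed by -0.19 for choroid plexus and ependyma, 0.16 for dentate granule cells and -0.13 for oligodendrocytes. These sums were higher in kainate in 1, 7 and 2 of 8 same-numbered pairs. In the other lists the sums differed by -0.060 to 0.032 and were higher in 3 to 5 pairs. For comparison, the lead isoform differences ran from 0.12 to 0.46. The part of these cell types in the isoform differences was not tested.

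Genes that work with the 6 members were taken from lists chosen by function, and their gene totals were compared. By limma 0 of 16604 gene totals had an adjusted p under 0.05 (0%) and 230 had an unadjusted p under 0.05. No listed gene reached an unadjusted p under 0.05, and the median difference over all totals was -0.0017. Among 14 genes of the NDR kinase pathway around Fry, 7 were higher and 7 lower, with a median of 0.0082. Stk24, a kinase upstream of the NDR kinases, differed by 0.046 ± 0.030, and Stk38, the NDR1 kinase itself, by 0.030 ± 0.028 (SE, n = 8 per group). Among 21 measured centriole genes, around Cep295, 13 were higher and 8 lower, with a median of 0.0087. Cenpj, which sets centriole length, differed by 0.047 ± 0.046, and Poc1b, a protein of the centriole wall, by -0.042 ± 0.031 (SE, n = 8 per group).

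Among 24 measured RFX factors and ciliary genes, 12 were higher and 12 lower, with a median of -9.7e-05. Dync2h1, the heavy chain of the motor that carries cargo back down the cilium, differed by 0.12 ± 0.093, and Dnah11, a motor of beating cilia, by -0.13 ± 0.086 (SE, n = 8 per group). Among 12 measured deubiquitinases and partners of Usp45, 7 were higher, with a median of 0.013. Of these Usp27x differed by 0.054 ± 0.030 and Usp51 by 0.023 ± 0.011 (SE, n = 8 per group). Usp51 averaged 4.60 in kainate and 4.57 in control libraries, a low level at which the deposited scale hardly varies. Among 7 measured relatives of Rnf150, 3 were higher, with a median of -0.011, Rnf13 at -0.047 ± 0.033 and Rnf149 at 0.025 ± 0.033 (SE, n = 8 per group). Among 16 genes of paroxysmal dyskinesias, release sites and relatives of Pnkd, 12 were higher, with a median of 0.019. Kcnma1, the large-conductance potassium channel whose human mutations also cause dyskinesia, differed by 0.086 ± 0.083, and Rims3, of the RIM family at release sites, by 0.035 ± 0.028 (SE, n = 8 per group).

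Finally the isoforms of other genes whose values followed each lead isoform most closely over the 16 libraries were looked up, after the means of replicates 1 to 4 and of replicates 5 to 8 had been taken out. Pearson's r served as the measure of likeness only, among 21691 to 21697 isoforms of other genes, and Spearman's rho of those named lay between 0.747 and 0.926. Fry was most like isoforms of Zcchc14 (r = 0.937), Sphkap (r = 0.925) and B4galt6 (r = 0.921). Cep295 was most like LOC103689975 (r = 0.881), Crtc1 (r = 0.879) and Ptpn9 (r = 0.862), and Rfx3 like Arid4a (r = 0.905), Xpr1 (r = 0.900) and Eml5 (r = 0.882). For Usp45, isoforms of Syt1 (r = 0.850) and Tab3 (r = 0.839) were among those most like it. Rnf150 was most like Frmpd4 (r = 0.934), AABR07019085.1 (r = 0.902) and Vps13d (r = 0.902), and Pnkd like AABR07058124.3 (r = 0.845), Mcm3ap (r = 0.799) and Col28a1 (r = 0.795). Between the 6 lead isoforms the 15 values of r ran from 0.247 for Fry with Pnkd to 0.832 for Fry with Cep295, with a median of 0.543. The lead isoforms share their libraries and their choice by the same contrast. The means of kainate and control were not taken out, so every r here also includes that contrast. AABR07058124.3 averaged 5.24 in kainate and 5.19 in control libraries, which is low on the deposited scale.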

How the data were processed

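RNA of 16 CA1 samples was sequenced from standard Illumina libraries, per the labels' protocols. Per the submitters' processing notes the authors used RSEM, DESeq2, Trim Galore, GATK and SAMtools; versions, aligner, genome build and annotation are not named there. RSEM divides reads that match several isoforms, so isoforms of a gene are not measured independently. The authors deposited a log2 value per isoform and animal; from the values it has a floor per isoform, as a regularized logarithm gives, and the transform is not named. The authors also deposited for each isoform the normalized count averaged over animals (a signal), a DESeq2 log2 fold change with its standard error, a ratio that equals 2 to its power, a Wald score, a p-value and an adjusted p-value. The deposited tables of listed isoforms and enriched terms were not used. Depth is unknown because no read totals can be recovered from such values, and intervals for counting error are left out.

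Members and lists were chosen with earlier results of these data known. All isoforms were fitted with limma 3.58.1 in R 4.3.3 (trend, robust), with no added constant or filter, and p-values were adjusted by Benjamini and Hochberg over the whole table with a threshold of 0.05. The test was checked on simulated data with independent noise, without the split between replicates 1 to 4 and 5 to 8. The planted changes were larger than the lead isoform differences, so the check does not show how the test performs on changes of that size. Gene totals are the log2 of the summed 2-power isoform values; 51 isoforms whose names had become dates were grouped by gene identifier. Named beside the members were the 3 isoforms most like each lead and the 2 genes of each list with the smallest p; 1 of these isoforms is not reported here. In 8 of 8 pairs, libraries of one number deviated together from their group means (r from 0.127 to 0.781 across isoforms), so the replicate numbers were taken to pair the libraries. Part of this follows the difference between replicates 1 to 4 and 5 to 8: with the means of each set taken out, r ran from -0.35 to 0.67 and 6 of 8 pairs were over 0.1. Only the titles, which number each library, bear on whether the animals were separate, so p-values measure the spread between these samples. Promoter windows are from RefSeq (GRCr8) and matched 6 of 6 genes by symbol; this is not known to be the build of the files. None of the 19 isoforms had values identical to another isoform's. Alternatives were the replicate block, a term for replicates 1 to 4, each library or pair left out, the sets of replicates alone, median scaling, no trend, a count filter, other leads and other totals.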

Additional observations from a re-analysis of the deposited data

Results flagged for a closer look

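A single value was flagged. The Usp45 sister isoform ENSRNOT00000066043 had a log2 value of 9.51 in control replicate 2, below the next lowest control at 9.82, and this gap was 0.658 of the range of the 8 controls. It was the only 1 of 48 groups of 8 values with such a distant sample, where chance gives about 1 in 20. At that rate chance gives more than 1 such group among 48, so nothing is read from it. Kainate replicate 2 had 9.64 for the same isoform. Without control replicate 2 the difference of this isoform was -0.052, against -0.0049 with all libraries.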

How the results depend on the processing

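The 6 lead isoform differences kept their direction in all 174 alternative settings tried, and none of these moved by more than the SD within groups. For the 5 leads higher in all 8 pairs, leaving out a pair or taking 1 set of replicates alone could not change the direction. The replicate block cannot change the mean difference, and the smallest deposited p picked the same leads. These settings are therefore no support for the differences. For the Fry lead the SD within groups, 0.78, was larger than its difference of 0.46. Of 654 settings for the 23 sister, total and share differences, 616 kept the direction. Fry ENSRNOT00000076483, at -0.36, changed sign in 2 of 28 settings. With both groups fitted with the replicate block, the differences were the same, and the SE of the Fry lead was 0.087 against 0.37 without it. The block changed no call: 0 isoforms, 0 gene totals, 0 listed genes and 0 genes by isoform usage passed with limma. Before adjustment, 1330 isoforms passed 0.05 with the block (875 higher, 455 lower in kainate) and 325 without it. With 1 library or pair left out, usage calls ran from 0 to 1, the 1 being without control replicate 1, and the other counts stayed at 0. The sum of all isoforms but the lead was added as an alternative after the data were seen. Depth is unknown, so weak isoforms cannot be given a counting error.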

Other observations

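Lead and sister isoforms of a gene did not always vary in the same way over the libraries. The means of the kainate and control groups were not taken out, so r and rho below include the difference between the groups. With the means of replicates 1 to 4 and of 5 to 8 taken out, the Cep295 lead and ENSRNOT00000083011 ran in opposite directions over the 16 libraries, with a Pearson r of -0.760 and a Spearman rho of -0.756. Without the 2 libraries farthest from the median of the lead, r was -0.638. The Rfx3 isoforms ran together, with r = 0.778 and rho = 0.779, and r = 0.867 without the 2 farthest libraries. For Fry, the lead and ENSRNOT00000077167 had r = -0.480 and rho = -0.524, and r = -0.176 without the 2 farthest libraries, so that relation rests on those libraries. These isoforms were singled out from 13 after their values were seen, and no test was made. Isoforms of a gene share reads, and the part of this sharing was not tested.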
